A study of Mus musculus with 27 samples.

Results

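In Kupffer cells of mice on a diet used as a model of non-alcoholic steatohepatitis (NASH), 2639 of 70300 open-chromatin windows (3.75%) held a site of each of LXR, ATF3 and P300 and none of these sites on the control diet. A window was counted when it overlapped by at least 1 bp a site in each of the 3 NASH lists and no site in any of the 3 control lists. The lists are the authors' reproducible ChIP-seq sites, so these windows were chosen by the measured binding of the 3 factors, which is described below without a test. The acetylation of histone H3 at lysine 27 (H3K27ac) took no part in the choice and is the measurement that was tested. The 2639 windows are called gained windows here.

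ChIP-seq, which sequences the DNA held by a protein or carrying a histone mark, was made from liver macrophages sorted as F4/80-Hi and Tim4-Pos Kupffer cells of C57BL/6J mice per the labels. H3K27ac at Timd4, which encodes Tim4, was much lower in both NASH libraries than in both control libraries and is given with the Kupffer cell identity genes. The NASH diet group had 2 H3K27ac libraries and the control diet group had 2, and for each factor the 2 libraries of a diet were joined into 1 list of sites. No genetic change is given for either group, and flavopiridol, which stops transcription, was present in both while the livers were digested. Of the 27 samples of the series, the 10 inputs and 1 peritoneal macrophage library were not analysed here. Neither the composition of the diet nor the number of animals is given in the sources used here. One of the 2 lists behind the windows was named for 20 weeks on the diet, while the LXR and P300 lists of NASH are headed by a different diet name, and whether the times match is unknown. Separate animals are not stated for the libraries of a group, and p-values then measure the spread between libraries, which may be technical.

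LXR is a nuclear receptor that is switched on by oxysterols and drives genes of cholesterol export, and in Kupffer cells it also maintains genes of the resident identity. ATF3 is a basic leucine zipper factor induced by stress and inflammatory signals, and it binds with AP-1 partners such as JUN. P300 is an acetyltransferase that is recruited by such factors and writes H3K27ac, the mark of active promoters and enhancers. In NASH, Kupffer cells lose part of their resident program and take up genes of lipid-associated macrophages.

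Most gained windows lay far from promoters, but 96 of them overlapped a RefSeq promoter by at least 100 bases. The sequences upstream of 4 of these starts are printed because each gained window sat on the start of its own gene and because they show what these stretches hold of AP-1, ATF and nuclear receptor motifs. Itgax and Mmp12 were called raised in H3K27ac and named by rule, while Clcn7 (called raised) and the start of Slc7a11 (below the filter on low values) were chosen after their values were seen. Each is the run of 250 bases before the start, 5′ to 3′ on the gene's strand (RefSeq, GRCm38.p6). Capitals mark AP-1 letters (TGANTCA), the composite of C/EBP and ATF factors (TGATGCAA) and the nuclear receptor element (AGGTCA), on either strand. Itgax lies at chr7:128129300-128129549 on the plus strand, Mmp12 at chr9:7347124-7347373 on the plus strand, Clcn7 at chr17:25136381-25136630 on the plus strand and Slc7a11 at chr3:50443614-50443863 on the minus strand.
Itgax: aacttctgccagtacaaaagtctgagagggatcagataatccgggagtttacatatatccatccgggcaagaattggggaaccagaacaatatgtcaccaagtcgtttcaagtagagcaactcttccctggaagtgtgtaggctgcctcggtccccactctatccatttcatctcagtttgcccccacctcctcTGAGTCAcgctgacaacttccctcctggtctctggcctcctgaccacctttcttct
Mmp12: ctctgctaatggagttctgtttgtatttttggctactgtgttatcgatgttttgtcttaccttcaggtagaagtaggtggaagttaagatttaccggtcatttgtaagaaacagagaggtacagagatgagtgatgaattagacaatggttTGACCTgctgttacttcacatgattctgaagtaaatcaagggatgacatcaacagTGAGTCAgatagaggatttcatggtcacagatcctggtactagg
Clcn7: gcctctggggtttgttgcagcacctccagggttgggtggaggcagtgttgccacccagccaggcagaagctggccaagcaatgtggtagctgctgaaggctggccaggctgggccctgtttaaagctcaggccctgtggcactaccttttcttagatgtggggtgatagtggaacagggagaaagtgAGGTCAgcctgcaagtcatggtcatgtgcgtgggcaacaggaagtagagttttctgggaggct
Slc7a11: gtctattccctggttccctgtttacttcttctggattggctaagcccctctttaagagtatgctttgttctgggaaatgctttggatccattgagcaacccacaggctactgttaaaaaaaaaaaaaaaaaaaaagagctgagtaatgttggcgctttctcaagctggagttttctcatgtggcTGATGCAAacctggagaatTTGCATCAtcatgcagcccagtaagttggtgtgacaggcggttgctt
The AP-1 letters TGAGTCA began 56 bases before the start of Itgax and 44 bases before that of Mmp12. Slc7a11 held the composite on both strands, 66 and 47 bases before its start.

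At the authors' scaling, H3K27ac was higher with the NASH diet in many gained windows, while in the table as a whole it was more often lower. The direction over the whole table depends on that scaling. With TMM scaling, used below as an alternative, 1193 windows of the table were called raised and 902 lowered. Values are tags per window scaled by the authors to 10000000 tags per library, here called normalised tags. Gained windows averaged 7.27 and 6.82 normalised tags in the 2 NASH libraries and 5.72 and 5.32 in the 2 control libraries. All 70300 windows averaged 12.2 and 11.2 in NASH and 13.6 and 12.6 in control. The gained windows took 2.23% (95% interval 2.21 to 2.25) and 2.28% (2.25 to 2.30) of the tags in windows in the NASH libraries, against 1.57% (1.55 to 1.60) and 1.58% (1.57 to 1.60) in the control libraries. These exact binomial intervals cover counting error only, and the 2 diets did not overlap. In bulk libraries, a higher share of cells with the mark and more of the mark per cell cannot be told apart.

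Both NASH libraries lay above both control libraries in 1019 gained windows (38.6%), beside 14.8% of all windows. They lay below both in 322 (12.2%), beside 30.8% of all windows. These shares are at the authors' scaling too. The change is NASH minus control in log2(value + 1), where the added 1 makes changes of low values look smaller. It is given relative to the median change of the tested windows, which was −0.26, while the test was made on the change before this subtraction. The median over all gained windows was 0.64, with quartiles at 0.08 and 1.32, beside 0.04 over all windows of the table. A relative change above 0 was found in 2055 gained windows (77.9%), beside 52.0% of all windows.

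Gained windows were weakly acetylated, which limits the test of single ones. Their median was 6 and 6 tags in the NASH libraries and 2 and 4 tags in the control libraries, the shallower of which held 9468035 tags in all beside 18749728 to 22615879 in the other 3 libraries. No tag was found in 7.05% and 6.86% of gained windows in NASH and in 22.4% and 19.5% in control, where 11.6% and 10.1% of all windows had none. After the filter on low values 869 gained windows were tested. A window that passed because it is high in NASH had to differ, so the counts that follow list calls and are no measure of the group.

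Limma called 160 of the 869 windows raised, beside 2.0% of the 35947 windows tested in the whole table, and 7 lowered, beside 4.59% (Benjamini-Hochberg adjusted p under 0.05, with an unsubtracted change of 1 or more in log2). With TMM scaling, under which the median of the tested windows lay near 0, it called 195 raised, beside 3.32% of the table, and 4 lowered, beside 2.51%. Of the 720 windows of the table called raised, 22.2% were gained windows. The count depends on each NASH library: 54 windows were raised without NASH replicate 1 and 54 without NASH replicate 2, against 175 and 153 without control replicate 1 or 2, and 39 of the 160 stayed raised in all 4 fits. DESeq2 on the recovered tags called 79, and 31 were called when every window with a tag entered the test.

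The change was larger where ATF3 was among the factors listed in NASH only. Windows without any control site had a median relative log2 change of 0.35 with ATF3 alone (1865 windows), 0.11 with LXR alone (1776) and 0.06 with P300 alone (2568). Among pairs of factors the median was 0.43 for ATF3 with P300 (1037 windows), 0.34 for LXR with ATF3 (840) and 0.13 for LXR with P300 (1590). All 3 factors together gave the 0.64 of the gained windows. These groups also differed in origin and place. From the list named for 20 weeks alone came 33.0% to 45.2% of the windows with ATF3 alone or in a pair. Of those with LXR, P300 or both and no ATF3, it was 10.1% to 15.9%. Within 1000 bp of a start lay 10.0% to 13.5% with ATF3 alone or in a pair, and 25.6% to 34.5% without it. The part of these differences in the medians was not tested.

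Windows that kept all 3 factors on both diets (8699) had a median of 0.01, and windows with no site of any factor (17122) had 0.04. The 80 windows with all 3 factors on the control diet and none in NASH had a median of −0.78. These medians describe the windows and were not tested against each other. The NASH lists held 51709 (LXR), 38828 (ATF3) and 52628 (P300) sites, against 44463, 16109 and 25219 in the control lists, and the part of this difference in the choice of gained windows was not tested.

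**Figure D1:**
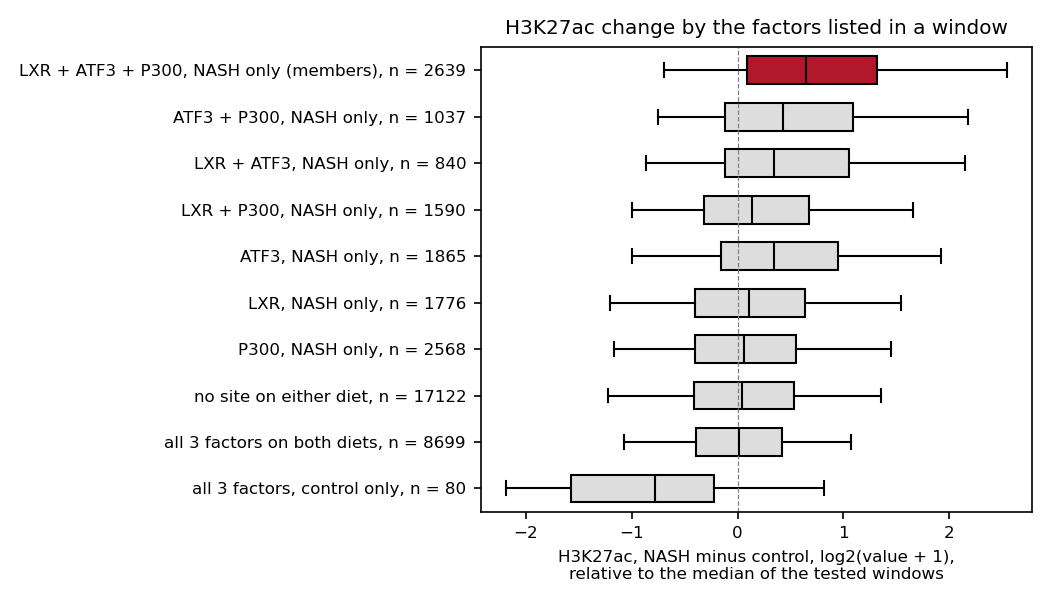
H3K27ac change (x axis, NASH minus control on the log2(value + 1) scale, relative to the median of the tested windows) by which factors were listed in a window (rows, with the number of windows). The line in each box is the median, boxes span the quartiles and whiskers the 5th to 95th percentile of windows, and the gained windows (red) have the median of 0.64, beside 0.35 for ATF3 alone and −0.78 for the windows with control sites only.

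Within the gained windows the H3K27ac change was larger where the site scores were highest. The 1088 windows with the highest IDR score of all 3 lists had a median relative change of 0.87, and in the 514 of them (47.2%) both NASH libraries lay above both control libraries. In the 659 windows with the highest LXR enrichment scores the median was 0.99, against 0.53 in the 660 with the lowest, and with P300 scores it was 0.96 against 0.54 in as many windows. Gained windows were themselves weak sites of the NASH LXR list, with a median enrichment score of 37 beside 50 over all windows with a NASH LXR site, and of the P300 list, with 41 beside 54. For ATF3 the share with the highest IDR score was 77.2% in gained windows and 72.5% over all windows with a NASH ATF3 site. All these scores are the authors' own, on a scale that the sources used here leave unstated.

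A high factor score did not go with higher H3K27ac in each window. Of the 5 gained windows with the highest LXR enrichment scores (208 to 228), the one at −14020 bp from E230013L22Rik had 65.6 and 61.4 normalised tags in NASH, against 82.4 and 89.3 in control (−0.17, SE 0.23, limma adjusted p = 0.261). The one at Wdfy1, which encodes an endosomal adaptor, had 50.7 and 36.9 in NASH, against 46.5 and 49.5 in control (0.11, SE 0.26, limma adjusted p = 0.783). The other 3, near Fbxo36, D730003I15Rik and 4930544D05Rik, had relative changes of 1.65 to 2.96, of which the one near D730003I15Rik was called raised.

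The rule puts the 3 sites in one window, with a median width of 202 bp, and so keeps their centres close. The centres of the LXR and ATF3 sites were a median of 30.5 bp apart, those of LXR and P300 32 bp and those of ATF3 and P300 29.5 bp. In windows with all 3 factors on both diets, which are under the same limit, these distances were 29, 28 and 28 bp. In 25 gained windows a NASH site reached in by at most 20 bp, and their median change was 0.85. In 25 windows just outside the rule, where control sites reached in by at most 20 bp, it was 0.29. The 55 gained windows with an IDR score under 550, near the lowest score of 540 in the lists, had a median of 0.25.

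Gained windows were mostly distal. Their median distance to the nearest annotated start was 18933 bp, beside 7573 bp for all windows, and 227 (8.60%) lay within 1000 bp of a start, beside 29.5% of all windows. Other windows without a control site were nearly as distal where ATF3 was listed alone or in a pair, with medians of 16062 to 17319 bp. With LXR, P300 or both and no ATF3 the medians were 4022 to 8170 bp. Introns held 1295 and intergenic stretches 1056 of the gained windows. Of the gained windows 969 (36.7%) came from the ATAC-seq list named for 20 weeks on the diet alone, beside 9.72% of all windows. This share was also high, 33.0% to 45.2%, in windows without a control site that had ATF3 alone or in a pair. ATAC-seq maps DNA open to a transposase, and absence from a list does not show that a window was closed, since no accessibility values were compared.

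These 969 windows had a median relative change of 1.03. Both NASH libraries lay above both control libraries in 484 of them (49.9%), beside 33.3% of all windows from that list alone. The 1466 gained windows on both ATAC-seq lists had a median of 0.50 and the 204 on the control list only had 0.18. Over all windows of the table the medians were 0.55, 0.04 and −0.13 in the same order. Within 1000 bp of a start the median of the gained windows was 0.32, and farther away it was 0.68.

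The 10 windows called raised with the smallest adjusted p, 1 per gene, lay near D730003I15Rik, Xylt1, Myo3b, Gpnmb, Itgax, Cd63, Chst11, Eya3, Gadd45a and Dennd4c. An intergenic window 18045 bp downstream of the start of the RIKEN gene D730003I15Rik had 25.6 and 25.0 normalised tags in NASH and none in either control library. The up to 3 tags per library that a count of 0 allows make it at least 11.2-fold higher in NASH (4.98 on the log2 scale, SE 0.56, limma adjusted p = 0.000186).

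Xylt1 encodes the xylosyltransferase that starts glycosaminoglycan chains on proteoglycans. Its intronic window at 89308 bp (chromosome 7, 117470187 to 117470387) had 32.5 and 45.2 normalised tags in NASH, against 2.11 and 0 in control (4.74, SE 0.55, limma adjusted p = 0.000201). The groups did not overlap, and the same holds for each of the 10 raised windows named here. Chst11, which sulfates chondroitin chains, had 29.3 and 18.2 normalised tags at −491 bp in NASH, against 1.06 and 0.88 in control (3.88, SE 0.52, limma adjusted p = 0.000627).

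Among these 10 windows, 3 lay within 1000 bp of the start of a gene on the list of lipid- and scar-associated macrophages. Gpnmb, a transmembrane glycoprotein of foamy macrophages, had 25.1 and 16.6 normalised tags at −598 bp in NASH, against 0 and 0.44 in control (4.42, SE 0.58, limma adjusted p = 0.000487). Itgax, the integrin chain CD11c, had 44.8 and 33.3 at −82 bp in NASH, against 6.34 and 3.54 in control (3.04, SE 0.40, limma adjusted p = 0.000615). Cd63, a tetraspanin of late endosomes, had 34.1 and 20.8 at −45 bp in NASH, against 2.11 and 0.88 in control (3.78, SE 0.51, limma adjusted p = 0.000627).

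The other 4 named raised windows changed by 2.63 to 3.93. They lay in an intron of Myo3b, a class III myosin, at −28232 bp from Eya3, a phosphatase and transcriptional coactivator, at −65250 bp from Gadd45a, which is induced by DNA damage, and at −35726 bp from Dennd4c, an exchange factor for the GTPase Rab10. The Eya3 window had the highest level of the 4, with 45.9 and 44.7 normalised tags in NASH, against 9.51 and 6.63 in control. The nearest gene was taken from the authors' annotation and need not be the one that a window acts on.

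Of the 7 lowered gained windows 6 are described. A window 55702 bp from the start of Rdh10, a retinol dehydrogenase, had 2.67 and 4.68 normalised tags in NASH, against 21.1 and 18.6 in control (−1.93, SE 0.46, limma adjusted p = 0.00812). Those at Gm33677, Ube2n, Slc5a10, Shb and Ripk2, changed by −0.90 to −2.24. With TMM scaling the windows at Ube2n, Shb and Ripk2 missed the threshold (limma adjusted p of 0.0767, 0.0632 and 0.0689), and each of the 7 missed it in at least 1 of the 4 fits that left out a library, which called between 1 and 12 gained windows lowered. DESeq2 called none.

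**Figure D2:**
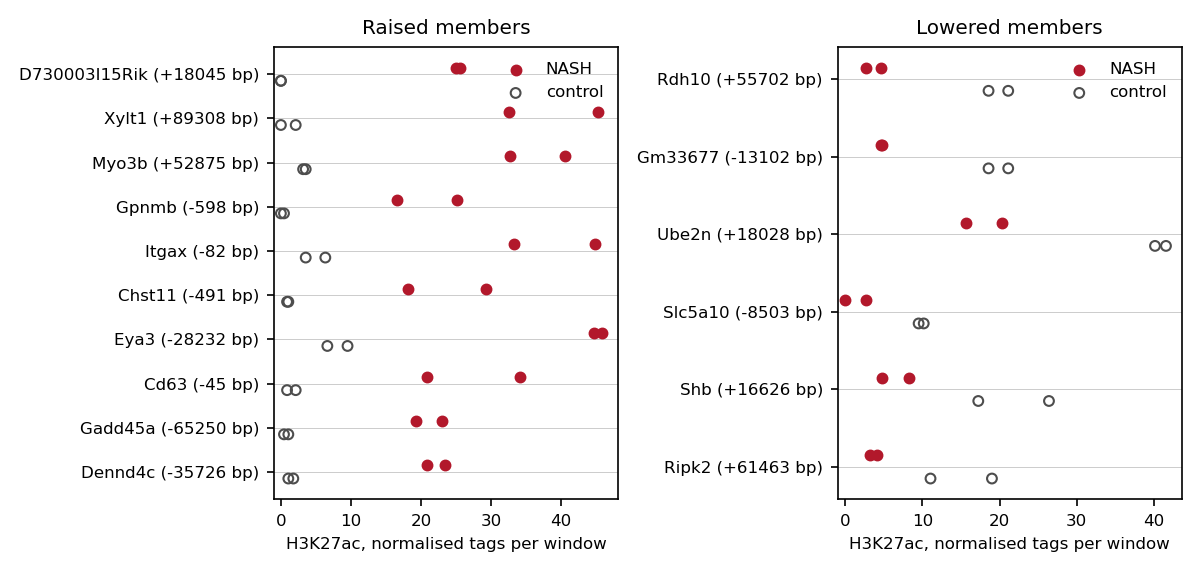
H3K27ac in normalised tags (x axis) of the 10 raised gained windows with the smallest adjusted p and of the 6 lowered ones described, each with its nearest gene and distance from the start. Each point is a library, NASH in red and control as open circles, and in every row the 2 diets stand apart.

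Gained windows stood alone at most places but formed groups at a few loci. Chaining windows whose centres were at most 12.5 kb apart gave 2346 groups, of which 2108 held 1 window and 43 held 3 or more. In 32 of these 43 groups the summed H3K27ac of both NASH libraries exceeded that of both control libraries, and in 1 group it was below both. No count over groups of other windows stands beside this.

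The largest group lay in an intron of Xylt1 and held 7 gained windows over 24956 bp. Its summed H3K27ac was 125 and 148 normalised tags in NASH, against 9.50 and 4.42 in control, and 6 of the 7 windows were called raised. The Xylt1 window at 47850 bp, with no site of any factor, rose as well. It had 13.9 and 17.2 in NASH, against 1.06 and 0.44 in control (3.51, limma adjusted p = 0.00234). The group of 6 windows near 6430531B16Rik on chromosome 7 overlapped Spef1l and Adam8, which encodes a metalloprotease. It summed to 49.1 and 48.9 in NASH, against 4.24 and 2.65 in control.

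The 5 windows downstream of D730003I15Rik began 47370 bp from Atf3 itself, the gene of 1 of the 3 factors. They summed to 97.6 and 81.6 normalised tags in NASH, against 6.34 and 4.42 in control, and 4 were called raised. The window at 6349 bp shared the highest P300 enrichment score of the gained windows (184) with a window near B4galt5, and it had 10.7 and 13 normalised tags in NASH, against 1.06 and 0.88 in control. No gained window was assigned to Atf3, whose 17 windows summed to 552 and 534 in NASH, against 397 and 326 in control (0.88, SE 0.13, limma adjusted p = 0.0033). A group of 4 windows upstream of Osbpl8, a lipid transfer protein of the oxysterol-binding family, summed to 28.3 and 31.2 in NASH, against 2.12 and 2.20 in control.

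Slc7a11 was the gene with the most gained windows, 9 of its 17. It encodes the cystine and glutamate antiporter that supplies cysteine for glutathione. On its start, whose sequence is printed above, the gained window had 5.33 and 8.32 normalised tags in NASH and none in either control library, at least 3.04-fold higher, and it was below the filter and not tested. In each of the 9 windows both NASH libraries lay above both control libraries, and the 4 called raised lay at −184902, −171991, −164334 and 37492 bp. Without 1 of the NASH libraries 3 of these 4 missed the threshold, all but the one at −171991 bp. That window had 9.60 and 7.80 normalised tags in NASH and none in control, at least 3.87-fold higher (3.53, SE 0.65, limma adjusted p = 0.00584). Over the whole gene Slc7a11 summed to 140 and 111 in NASH, against 9.53 and 8.84 in control (3.91, SE 0.29, limma adjusted p = 9.97e-08). The rise at Slc7a11 was not confined to gained windows, and none of its other windows had a relative change below 0. Its window at 5550 bp, with no site of any factor, had 13.3 and 17.2 normalised tags in NASH, against 1.06 and 0 in control. That change was 3.75 (limma adjusted p = 0.00223), and the window at −536 bp, also without a site, changed by 2.96 (limma adjusted p = 0.0197). The next genes by number of gained windows were Map4k3, a kinase upstream of JNK, with 8, Xylt1 with 7, and Dscam, an adhesion molecule, and Gm29686 with 6 each. Over all their windows Map4k3 (1.15, limma adjusted p = 0.0163) and Dscam (2.56, limma adjusted p = 0.0043) were called raised, and Gm29686 was not (1.26, limma adjusted p = 0.093).

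**Figure D3:**
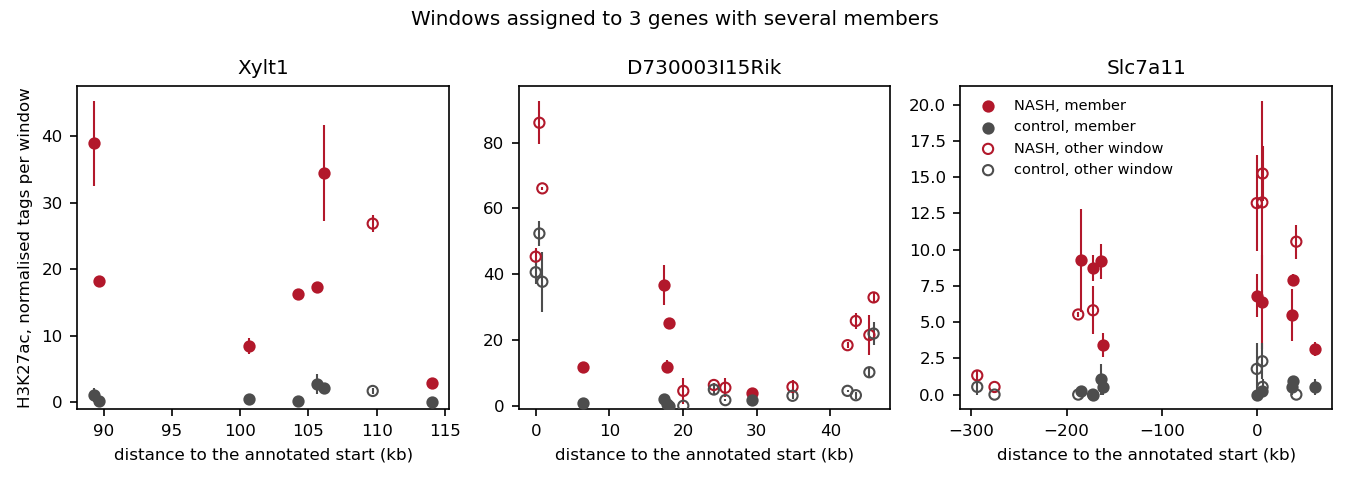
H3K27ac in normalised tags (y axis) of the windows assigned to Xylt1 (from 80 to 120 kb), D730003I15Rik and Slc7a11 by distance to the annotated start. Points are means of 2 libraries and bars join the 2 libraries, with NASH in red, control in grey, gained windows filled and other windows open. At Xylt1 the means of the gained windows reach 38.9 in NASH, and the control means stay at or under 2.77, with single control libraries up to 4.22.

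Genes with gained windows were set beside all genes by summing H3K27ac over each gene's windows, and a gene was called at an adjusted p under 0.05. Of 16038 genes with a window 2004 (12.5%) had a gained one, and 1786 of these were tested. Limma called 198 of them raised, beside 2.89% of all genes tested, and 138 lowered, beside 11.0%. With TMM scaling it called 378 raised, beside 7.06%, and 56 lowered, beside 6.18%. Without NASH replicate 1 or 2 the raised genes numbered 70 and 65. The gained windows are part of these sums, and genes with more of them also have more windows, a median of 2 without a gained window and 16.5 with 5 or more.

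The median relative change of the gene sums was −0.02 without a gained window, 0.21 with 1, 0.45 with 2, 0.42 with 3, 0.92 with 4 and 1.12 with 5 or more, where 12 of 18 genes were called raised. The 3344 other windows within 5000 bp of a gained window had a median of 0.28, and the 51429 windows of genes without a gained window had −0.02.

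**Figure D4:**
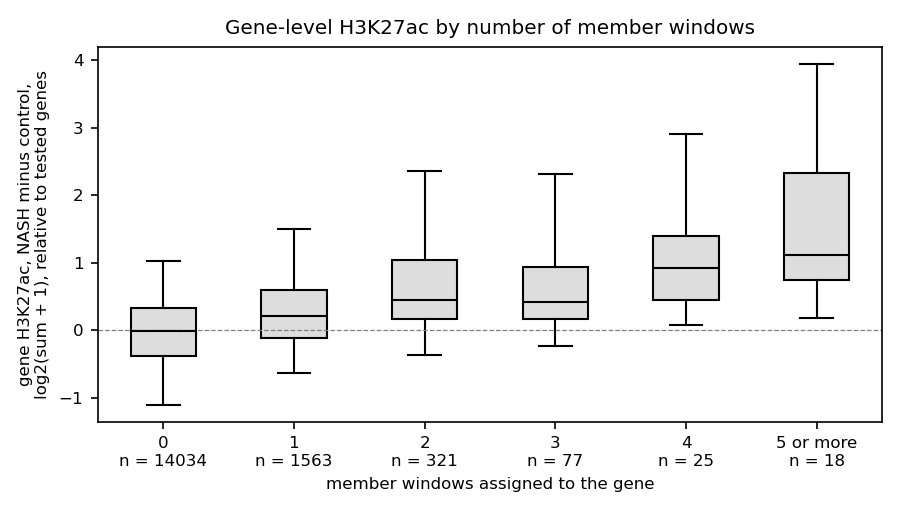
Change of gene-level H3K27ac (y axis, NASH minus control on the log2(sum + 1) scale, relative to the median of tested genes) by the number of gained windows assigned to a gene (x axis, with the number of genes). The line in each box is the median, boxes span the quartiles and whiskers the 5th to 95th percentile, and the median reaches 1.12 with 5 or more gained windows.

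Genes of lipid- and scar-associated macrophages held gained windows more densely than the table did. They had 21 among 219 windows (9.59%, beside 3.75% of all windows), at 14 of 26 genes, with a median relative change of 1.24. Of these windows 9 were tested and 4 called raised, at Gpnmb, Itgax, Cd63 and Mmp12. Beside this stand 18.4% of the tested gained windows and 2.0% of all tested windows. Both NASH libraries lay above both control libraries in 13 of the 21 windows, beside 38.6% of all gained windows. They lay below both in 4, at Ctsl, Mitf, Ctsd and Lpl, beside 12.2%. Mmp12, the macrophage elastase, had 10.7 and 8.84 normalised tags at −17 bp in NASH, against 1.06 and 1.33 in control (2.55, SE 0.57, limma adjusted p = 0.0211). Of the 24 genes tested in this list 11 were called raised, beside 2.89% of all genes tested, and 1 lowered, beside 11.0%, over all their windows. With TMM scaling 14 were raised, beside 7.06%, and 0 lowered, beside 6.18%.

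The genes of Kupffer cell identity were poor in gained windows, with 3 among 309 (0.971%), at Cd5l and Kcna2. By the rule a window with a control site of any factor cannot be a gained one. The share of each list is over all its windows, and its windows without a control site were not counted. The low share may therefore be set in part by the rule. Cd5l, a secreted scavenger protein and LXR target, had 20.3 and 23.9 normalised tags in the gained window at −25727 bp in NASH, against 13.7 and 18.6 in control (0.70, SE 0.35, limma adjusted p = 0.471). Its other gained window, at −26906 bp, had 20.3 and 15.1 in NASH, against 18.0 and 13.3 in control (0.43, limma adjusted p = 0.824). Kcna2, a potassium channel gene, had 10.1 and 15.1 at −1797 bp in NASH, against 22.2 and 25.2 in control, with both NASH libraries below both control libraries (−0.62, SE 0.36, limma adjusted p = 0.146). Over all windows none of the 28 genes tested in this list was called raised by limma, beside 2.89% of all genes, and 17 were lowered, beside 11.0%. With TMM scaling 0 were raised, beside 7.06%, and 12 lowered, beside 6.18%. Timd4, which encodes the Tim4 of the sort, had no gained window and summed to 21.3 and 26.0 normalised tags in NASH, against 257 and 256 in control (−3.10, SE 0.22, limma adjusted p = 6.72e-09). Low H3K27ac at this gene is at odds with the Tim4-Pos label of the NASH cells, and the Tim4 protein was not measured here.

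Lysosomal genes and their MiT/TFE regulators also held many gained windows, 22 among 298 (7.38%) at 16 of 28 genes, but their median relative change was 0.01. Limma called none of the 12 tested (2 had an unadjusted p under 0.05, and limma with TMM scaling called 1, edgeR 1 and DESeq2 none). The gained windows at Atp6v0d2, Ctsd, Ctsk, Ctsl and Mitf also belong to the list of lipid- and scar-associated macrophage genes. Known LXR target genes, of cholesterol export, fatty acid synthesis, phagocytosis and other roles, had 8 gained windows among 257 (3.11%), at Abcg1, Arl4c, Cd5l, Lpl, Mertk, Mylip and Scd2 of 22 genes. Their median was 0.56 and limma, edgeR and DESeq2 called none of the 7 tested, nor did limma with TMM scaling, and 1 had an unadjusted p under 0.05. Abcg1, a cholesterol exporter, had 44.3 and 40.6 normalised tags at −17053 bp in NASH, against 22.2 and 30.1 in control (0.95, SE 0.29, limma adjusted p = 0.15).

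Glycolysis and transport genes had 18 among 182 windows (9.89%), 9 of them at Slc7a11. The list of AP-1, ATF and MAF factors, which also holds RUNX factors, had 11 among 385 (2.86%) at 9 of 24 genes. Of the 6 tested, 3 were called raised, at Bach1, a heme-sensing repressor, and at Runx1 and Runx2, beside 18.4% of the tested gained windows. Both NASH libraries lay above both control libraries in 6 of the 11 and below both in 3, at Fosb, Batf and Batf3. Over all windows 4 of the 24 genes were raised, beside 2.89% of all genes tested, and 5 lowered, beside 11.0%. With TMM scaling 9 were raised, beside 7.06%, and 1 lowered, beside 6.18%. The Bach1 window at 14240 bp had 16.0 and 14.04 normalised tags in NASH, against 3.17 and 0.88 in control (2.77, SE 0.55, limma adjusted p = 0.00999). Inflammatory genes under NF-kB had 14 among 300 (4.67%) at 7 of 31 genes. Of the 7 windows tested, 3 were called raised, beside 18.4% of the tested gained windows, and they lay at 2 inhibitors of that pathway.

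Tnfaip3, which encodes the deubiquitinase A20, had 20.8 and 17.2 normalised tags at 15417 bp in NASH, against 3.17 and 1.33 in control (2.93, SE 0.51, limma adjusted p = 0.00407). Nfkbia, which encodes the inhibitor of NF-kB alpha, had 13.3 and 7.80 at 26178 bp in NASH, against 0 and 0.88 in control (3.29, SE 0.64, limma adjusted p = 0.00794). Over all its windows Nfkbia was lower in NASH (−0.20, SE 0.12, limma adjusted p = 0.01), a call that was lost with TMM scaling (adjusted p = 0.408). Of the list windows given with values here, those at Tnfaip3 and Nfkbia missed the threshold without NASH replicate 1 (limma adjusted p = 0.061 and 0.065). Those at Mmp12 (0.112 and 0.103) and Bach1 (0.084 and 0.082) missed it without NASH replicate 1 and without NASH replicate 2.

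Regulators of actin and small GTPases had 15 among 363 windows (4.13%, beside 3.75% of all windows). Of the 7 tested, 5 were called raised, 2 at Myo3b, 2 at Rhoc and 1 at Myo1e. Beside this stand 18.4% of the tested gained windows and 2.0% of all tested windows. PI3-kinase and MAP kinase genes had 18 among 430 (4.19%), growth factor and TGF-beta genes 10 among 271 (3.69%), integrin and protease genes 10 among 188 (5.32%), Notch genes 3 among 116 (2.59%), interferon genes 3 among 154 (1.95%) and antigen presentation genes 3 among 112 (2.68%). In these last 6 lists raised gained windows lay at Pik3r5, a PI3-kinase subunit (1 of 5 tested), and at Tgfbr2, a TGF-beta receptor (1 of 4 tested). The others were those at Itgax and Mmp12 again (2 of 4 tested).

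No gained window lay at hepatocyte, stellate cell, cholangiocyte, T and NK cell, B cell or neutrophil markers, which had 58 windows in all. At the 3.75% of all windows, so few windows would hold few gained ones or none. Many of these markers had no window, and only 2 of 10 stellate cell and 2 of 6 cholangiocyte markers had any. Monocyte markers had 5 among 51 windows (9.80%, beside 3.75% of all windows), at Ccr2, F13a1 and Vcan, with a median change of 0.26 and the 1 tested not called, and their windows summed to 505 and 493 normalised tags in NASH, against 649 and 515 in control. Dendritic cell markers had 2 (Batf3 and Clec9a) and endothelial markers had 1 (Kdr), none of them tested, and both lists summed lower in NASH. The hepatocyte, cholangiocyte and T and NK cell lists summed higher in NASH (38.5 to 45.9 against 31.8 to 37.0, 24.4 to 40.0 against 13.7 to 18.0, and 20.8 to 37.4 against 7.95 to 18.0 normalised tags). The stellate cell, B cell and neutrophil lists summed lower (60.8 to 64.5 against 68.5 to 76.0, 29.6 to 37.3 against 106 to 107, and 75.4 to 80.0 against 126 to 136). The part of these cell types in the result was not tested.

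**Figure D5:**
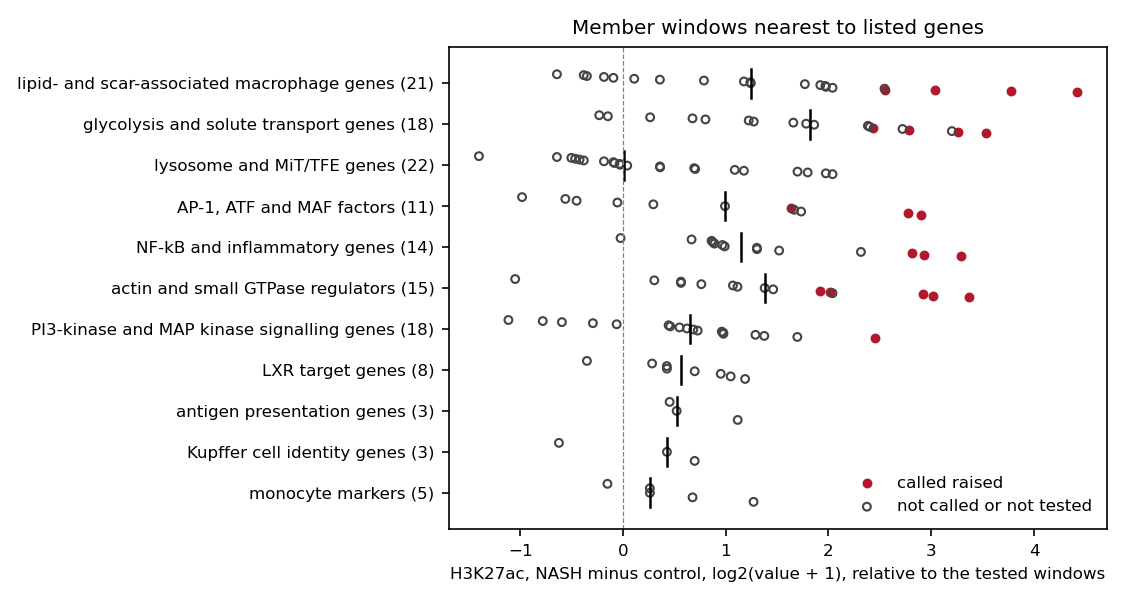
H3K27ac change of each gained window (x axis, NASH minus control on the log2(value + 1) scale, relative to the median of the tested windows) nearest to a gene of 11 lists (rows, with the number of windows). Filled points were called raised, and open ones were not called or not tested. Black bars are medians, which lie at 1.24 for lipid- and scar-associated macrophage genes and at 0.01 for lysosomal genes. Both of these lists hold the windows at Atp6v0d2, Ctsd, Ctsk, Ctsl and Mitf.

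AP-1 letters were frequent in promoters under gained windows. The 96 windows covered at least 100 bases of 109 RefSeq promoters (250 bases before to 50 after a start). Overlapping promoters of close starts count apart, and the 109 belong to 100 genes. Those of Exoc1 and Eml4 repeat E-box matches given below, and those of Exoc1 repeat ETS core matches. Of the 109 promoters 20 (18.3%) held TGANTCA, beside 7.81% of all 32817 promoters and 4.79% of the 10603 promoters under other windows. Promoters under windows with all 3 factors on both diets held it in 8.24% of cases. Gained windows were chosen to hold an ATF3 site, and ATF3 binds with AP-1 partners, so the share with AP-1 letters is not independent of the choice. Promoters under other windows with ATF3 in NASH only were not counted apart. The E-box CACGTG was found in 20.2%, beside 7.15% of all promoters, 11.1% of those under other windows and 10.4% of those with all 3 factors on both diets. The NRF2 and small MAF letters TGACNNNGC were found in 22.9%, beside 12.4%, 15.0% and 16.3% in the same order. The AP-1 letters can overlap those of small MAF.

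The full ATF and CREB site TGACGTCA was found in 4.59%, beside 1.79% of all promoters, 3.72% of those under other windows and 6.31% of those under windows with all 3 factors on both diets. The composite TGATGCAA was found in 1.83%, beside 0.896%, 0.509% and 1.15% in the same order. The nuclear receptor element AGGTCA was found in 12.8%, beside 16.3% of all promoters, 11.4% under other windows and 14.5% with all 3 factors on both diets. The direct repeat of that element that LXR binds, searched without its first letter, was in none of the 109 and in 7 of all promoters. Base composition differed between these groups, with a median of 56.3% G and C in promoters under gained windows, 62.0% in those under other windows and 52.7% in all, and its part in these shares was not tested. The 19 windows with AP-1 letters in a promoter under them had a median relative H3K27ac change of 1.57, and both NASH libraries lay above both control libraries in 10. The other 77 had a median of 0.26, and this held for 17 of them. This split was made after the values were seen, and a match of letters is not a measured site.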

How the data were processed

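H3K27ac was taken from the authors' table of tags in 70300 merged ATAC-seq windows (mm10). Per the file headers these values are a signal (coverage) computed by HOMER, scaled to 10000000 tags per library, and they gave back whole tags within 0.02 in all 4 libraries. The site lists are the authors' IDR output on 2 libraries each, with an IDR score and an enrichment score per site per the file headers; the unnamed ATF3 score was taken for the IDR score. The submitters' processing notes name Bowtie2, HOMER and DESeq2, with versions not given in the sources used here.

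Windows were joined to sites with bedtools 2.31.1. Limma 3.58.1 (trend, R 4.3.3) was fitted to log2(value + 1) over all windows kept by edgeR 4.0.16 filterByExpr, with Benjamini-Hochberg adjustment over all of them. Gene sums were fitted likewise over 11593 genes. DESeq2 1.42.0 and edgeR on the recovered tags were alternatives. The code was tested on simulated data. Python 3.11.15, pandas 2.3.3, numpy 2.4.6 and SciPy 1.17.1 were used for the rest. The 12 windows without a gene name, with 0.108% and 0.132% of window tags in NASH and 0.0580% and 0.0609% in control, stayed out of gene sums.

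The gained windows, the 23 gene lists (408 names, 364 in the table) and the tests were chosen with earlier results of these data known. Named windows are the 10 raised and up to 10 lowered with the smallest adjusted p, 1 per gene, the 5 with the highest LXR score, the 5 genes with the most gained windows and up to 4 genes per list; the text gives a selection of the last, and 1 lowered window is not reported here. Replicate numbers did not pair libraries (correlation of same-numbered deviations 0.04, 2 pairs). With 2 libraries per group an exact permutation test cannot go below p = 0.333. Folds against no tag use a floor of 3 tags per library. Motifs were searched on both strands of RefSeq promoters, since no genome was used. Other motifs follow as shares of promoters under gained windows, all promoters, those under other windows and those with all 3 factors on both diets. The PU.1-like ETS letters GAGGAAGT had 2.75%, 3.20%, 3.80% and 8.31%, and the ETS core CCGGAAGT had 8.26%, 3.89%, 9.64% and 12.5%. The NF-kB motif had 0.917%, 1.63%, 1.74% and 2.54%, and the RUNX letters TGTGGT had 16.5%, 16.8%, 11.9% and 13.0%. The CLEAR element TCACGTGA, which contains the E-box, had 1.83%, 0.975%, 2.15% and 2.62%, and the IRF motif had 2.75%, 3.43%, 3.06% and 5.31%. The SP letters GGGCGG had 45.0%, 35.6%, 68.5% and 59.3%, and the TATA box had 6.42%, 13.6%, 5.98% and 5.62%.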

Additional observations from a re-analysis of the deposited data

How the results depend on the processing

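No called window or gene and no median over the gained windows changed sign under the alternatives run, while 14 of 66 windows listed without a call did under at least 1. The 160 raised windows became 31 with no filter, 79 with DESeq2 and 54 to 175 when 1 library was left out. The 7 lowered windows became 0 with no filter, 4 with TMM scaling, 4 with edgeR, 0 with DESeq2 and 1 to 12 when 1 library was left out. Genes raised, 198, became 378 with TMM, 390 with edgeR and 65 to 229 without 1 library. Genes lowered, 138, became 87 with no filter, 56 with TMM, 57 with edgeR, 27 with DESeq2 and 31 to 196 without 1 library. The median change of 0.64 became 0.78 with a pseudocount of 0.5, 0.36 with 5, 0.57 with TMM, 0.72 without control sites within 500 bp, 0.87 with the highest IDR score only (1088 windows) and 0.60 to 0.71 without 1 library. AP-1 letters were in 6.42% of promoters when only the central 100 bases, a shorter stretch, were searched. Where not set by the construction, the cause was not tested. Among named windows and genes, 97 values missed and 23 newly passed the threshold, against 1078 on the same side.

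With the replicate number as a block, 197 windows were raised, 19 lowered, 266 genes raised and 232 genes lowered; the numbers do not pair the libraries. Motifs in the central 200 bases of windows were not run, since no genome was used. Reading coordinates as 1-based, chosen after seeing the data, added 1 window. Median depths of 2 to 6 tags per gained window limit single calls.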
